A study of Caenorhabditis elegans with 4 samples.

Results

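The regions described here are the DNA stretches on chromosome V of Caenorhabditis elegans at which a GFP-tagged ELT-1 protein was found by chromatin immunoprecipitation and sequencing (ChIP-seq). They were taken by 1 criterion, a position on chromosome V in the authors' combined list of binding regions, which gave 425 regions, 16.7% of the list, with the other 2123 on the remaining chromosomes. The worms were L3 hermaphrodites of strain OP354, grown at 20 °C and treated with 2% formaldehyde. The strain carried the transgene wgIs354, a copy of elt-1 tagged with TY1, EGFP and FLAG together with an unc119 marker, in the unc119(ed3) background. Per the labels it came from a plasmid introduced by bombardment and was not outcrossed. There were 2 ChIP samples precipitated with anti-GFP antibodies and 2 input samples, all of this genotype and stage, so no untagged strain stands beside them. Whole worms were used, so a region may be bound in any of the cell types that express the tagged protein.

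ELT-1 is a GATA factor, a zinc finger protein that recognises short DNA sites around the letters GATA. It is best known for giving embryonic cells their epidermal fate, and the epidermis goes on to make the cuticle at each larval stage. Worm autosomes have a gene-rich centre with little recombination and 2 arms richer in repeats and in fast-evolving gene families. The arms of V are known for many chemoreceptor genes. Which genes lie beside the regions, and which GATA sites lie within them, was not analysed here, since no genome or annotation of the build of the files (WormBase WS220) was used.

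Besides the combined list, each ChIP sample had a list of its own, with 5061 of 28238 regions on V in replicate 1 and 4837 of 26327 in replicate 2. Whether separate cultures stood behind the replicates is not in the labels, so differences between them may be technical. Read depth is unknown, as is the way the input entered the calls. The best list of a replicate means here its best nuclear regions by the authors' score and then by number, as many as the combined list has in all. Everywhere else regions are ranked by the number that ends their name (1 is the best). Below the highest score the order by score and that by number differ in places. The authors' score beside each region is 3.72 for every combined region, and it stops at a highest value of 3.70 in replicate 1 and 3.74 in replicate 2, so it does not order the combined list and does not separate the replicate regions at that value. Of the 425 regions on V, 256 (60.2%) overlapped regions at that highest score in both replicates, as did 61.1% of those on the other chromosomes.

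The first comparison concerns the members themselves: which places on V were ranked best, and how alike the 2 replicates placed them. The best was V:14506715-14507077, number 2 of the combined list and number 3 in both replicates. Next came V:19429597-19429939, number 5 of the combined list, which was number 15 in replicate 1 and number 5 in replicate 2. It was the best region of the right arm. V:5425051-5425413 (number 6) was number 6 in replicate 1 and 9 in replicate 2. These places stood near the top in each replicate, and the distance between the replicate midpoints was 12.5, 5.5 and 23 bp.

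A further 3 V regions were within the best 14 of the combined list. V:4628459-4628781 (number 9) was number 9 in replicate 1 and 13 in replicate 2. V:15660982-15661343 (number 11) was number 14 and 21, and V:5523283-5523571 (number 14) was number 21 and 17. After them came a jump to number 35, V:7686279-7686528, which was number 25 in replicate 1 and 74 in replicate 2. No V region stood between these numbers.

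Some of the next members lay beside the leaders. V:5426406-5426645 (number 43) lay beside number 6, and V:19428997-19429251 (number 58) beside number 5. V:14505717-14505993 (number 67) lay beside number 2. Number 58 was placed higher in replicate 2 (36) than in replicate 1 (137), and number 67 higher in replicate 1 (63) than in replicate 2 (163). A companion thus stood next to each of the 3 best V regions, at a lower rank.

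Other members of the 20 best were V:11614794-11615141 (number 37), V:13333452-13333717 (44), V:6229440-6229709 (45), V:4918690-4918924 (63) and V:6253989-6254248 (65). V:10897233-10897451 followed at number 80 and V:15664134-15664407 at 81, the latter beyond 2 kb from any other. V:4507852-4508048 (number 87) is the best member of the largest cluster on V. V:539118-539385 (number 88) was the best region of the left arm, with number 141 in replicate 1 and 95 in replicate 2. The last of the 20 was V:11779350-11779568 (number 89), at 188 and 63.

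Of these 20 regions, 17 lay in the centre of V, 2 in the right arm and 1 in the left. The centre held 347 of all 425 V regions (81.6%), so most V regions of any rank lay there. All 20 were within the best 188 of replicate 1 and the best 185 of replicate 2. Their replicate midpoints were 0.5 to 58.5 bp apart with a median of 12.5 bp. The combined list was made from these replicates, so the likeness describes how it was built and is not independent support. A neighbour midpoint within 2 kb was present for 12 of the 20, beside 27.3% of all V regions and 26.8% of all combined regions. Better-ranked regions more often had one elsewhere too, at 35.8% in the best of 5 parts of the other chromosomes and 23.1% in the last, and the 20 were not tested against them.

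The second comparison asked how many regions V holds for its length, and where along it they lie. V carried 20.3 combined regions per Mb, against 26.8 on the other 5 chromosomes together, so V had 0.759 times their density (95% interval 0.683 to 0.843; exact binomial, p = 1.04e-07, adjusted p = 4.67e-07 over 9 tests). Against autosomes I to IV alone, with 24.8 regions per Mb, the ratio was 0.819 (0.734 to 0.912; exact binomial test, adjusted p = 9.92e-04). Chromosome IV, at 20.8 regions per Mb, was close to V, while I held 24.6, II 27.8, III 26.8 and X 33.5. The lower density is thus one against the pooled chromosomes, and V was not tested against IV alone. Regions that lie close together are not independent, so these tests describe the list and not a population of cultures. The whole lists of replicates 1 and 2 were also thinner on V, with ratios to the other chromosomes of 0.829 (0.804 to 0.855) and 0.855 (0.828 to 0.882).

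On V itself the regions were thinnest in the arms. With an arm defined as the outer 20% of the chromosome at either end, the centre of V held 347 regions (27.7 per Mb), the left arm 48 (11.5 per Mb) and the right arm 30 (7.17 per Mb). The centre was therefore 2.97 times as dense as the arms (2.31 to 3.84; exact binomial test, adjusted p = 9.05e-21). This ratio was 1.73 on I, 1.98 on II, 1.93 on III and 1.76 on IV. The balance of centre and arms on V differed from that of I to IV pooled (odds ratio 1.60, 1.22 to 2.13; Fisher's exact test, adjusted p = 0.00174).

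That difference between V and the other autosomes passed the test in the combined list and in replicate 1, and not in replicate 2. In the best list of replicate 1 the odds ratio was 1.68 (1.27 to 2.26; Fisher's exact test, adjusted p = 5.33e-04). In that of replicate 2 it was 1.32 (1.003 to 1.74), and the call was lost (Fisher's exact test, adjusted p = 0.120). The denser centre of V itself was present in both, at 3.14 (2.43 to 4.11) and 2.65 (2.08 to 3.41).

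A comparison of like parts was added after the values were seen. The arms of V held 9.32 regions per Mb and those of I to IV 16.4, a ratio of 0.567 (0.439 to 0.724; exact binomial test, adjusted p = 2.71e-06 over 2 tests). On the single chromosomes both arms together held from 14.3 per Mb on IV to 17.5 on II. The right arm of IV held 11.4 per Mb, close to the left arm of V at 11.5, and the right arm of V held 7.17. Single arms were not tested against each other across chromosomes. The centre of V held 27.7 and the centres of I to IV 30.4 regions per Mb, a ratio of 0.909 whose interval reached above 1 (0.804 to 1.03; exact binomial test, adjusted p = 0.126). The best lists of the replicates gave 0.519 and 0.641 for the arms. In the whole replicate lists, the arms of V stood at 0.793 and 0.826 times those of I to IV, nearer to equality. For the centres the best lists gave 0.873 and 0.843, and there the difference passed the test (exact binomial adjusted p = 0.0272 and 0.00577).

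**Figure D1:**
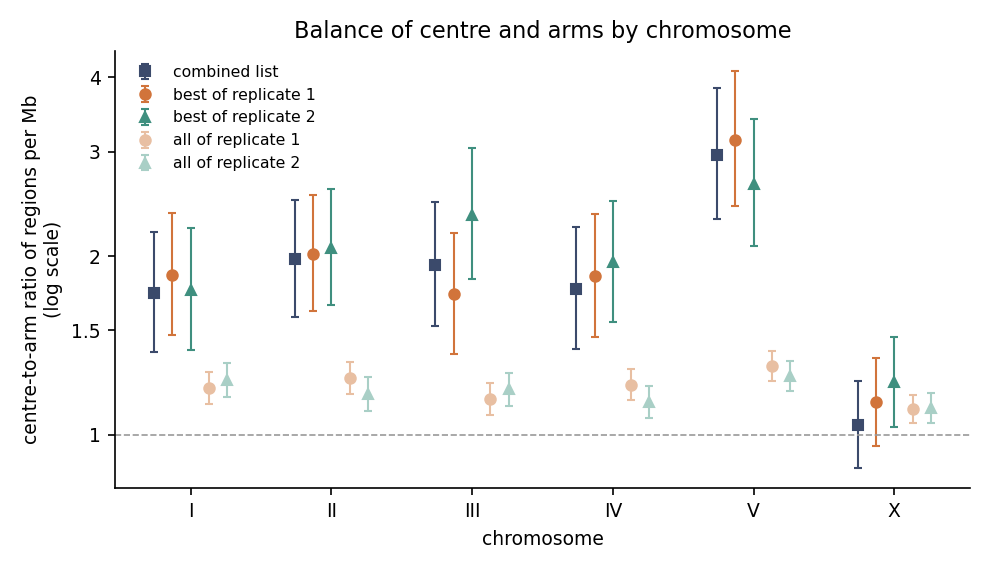
Ratio of regions per Mb in the central 60% of each chromosome to that in its arms, on a log scale, for the combined list, the best list of each replicate and their whole lists. Points are ratios and bars are exact 95% intervals from counts. V stands at 2.97 in the combined list against 1.73 to 1.98 on the other autosomes. In the whole lists of replicates 1 and 2 V stands at 1.31 and 1.26, against 1.15 to 1.25 and 1.14 to 1.24 on the other autosomes.

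The contrast of centre and arms on V was smaller among all called regions. In the whole replicate lists the centre of V exceeded its arms only 1.31-fold (1.23 to 1.39) in replicate 1 and 1.26-fold (1.18 to 1.33) in replicate 2. On I to IV pooled the same ratios were 1.20 (1.17 to 1.24) and 1.18 (1.15 to 1.22). The odds ratio of V against I to IV was thus 1.09 (1.02 to 1.16) in the whole list of replicate 1. In that of replicate 2 it was 1.06 (0.992 to 1.14), against 1.60 in the combined list. For every 100 replicate 1 regions called in the arms of V, the combined list held 4.56 there, and for every 100 called in the centre it held 10.4. With replicate 2 as the base these values were 4.65 and 10.98. On I to IV the corresponding values were 6.38 and 9.81 with replicate 1 and 6.77 and 10.6 with replicate 2. Put the other way, 394 of 3352 replicate 1 regions of the V centre (11.8%, exact 95% interval 10.7 to 12.9) overlapped a combined region, against 91 of 1709 in the arms (5.32%, 4.31 to 6.50).

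The arms were uneven in themselves. Counted in bins of 1 Mb, the first 2 Mb of V held 37 combined regions, 18.5 per Mb. The following 2 Mb held 10, of which 1 lay between 2 and 3 Mb, where the best number was 1786. From 4 to 16 Mb the list held 342 regions, 80.5% of all on V, at 28.5 per Mb. The densest stretch was 11 to 14 Mb, with 37 in each bin.

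Towards the right end the count fell again, to 12 between 16 and 17 Mb, 3 between 17 and 18 Mb and 4 in the next bin. The last 2 bins, of which the final one is cut short by the end of the chromosome, held 9 and 8. Both ends of V thus carried more regions than the stretch just inside them. The replicates' own lists dipped at the same places by less: between 2 and 3 Mb replicate 1 had 155 regions and replicate 2 had 142, against medians per full bin of 252.5 and 242. These stretches were picked out after the bins were seen and were not tested.

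**Figure D2:**
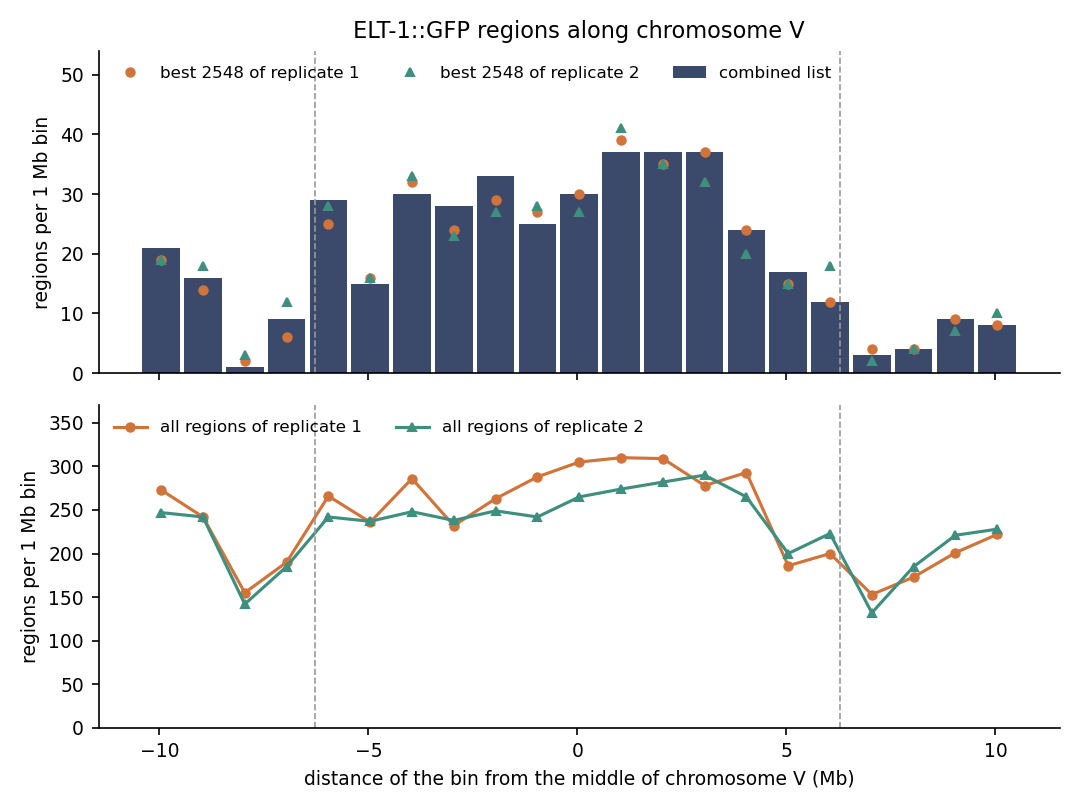
Regions per 1 Mb bin of chromosome V against the distance of the bin from the middle of the chromosome in Mb, with dashed lines at the inner edges of the arms. The upper panel shows the combined list (bars) and the best list of each replicate (points), from 1 to 37 combined regions per bin; the lower panel shows the whole replicate lists, which range from 132 to 310 in full bins.

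The widest spaces without a combined region lay in the arms. The largest ran from 1872183 to 2638519, with 767 kb between midpoints, and ended at the only combined region of the 2 to 3 Mb bin. Replicate 1 had 131 regions inside it, the best of them number 2228, and replicate 2 had 110, the best of them number 1820. The next were 669 kb, from 17236608 to 17905587, and 539 kb, from 17951610 to 18490444. Called regions were therefore present within these spaces, at ranks from 1706 downward in replicate 1 for these 3. V had 17 spaces over 200 kb, as did IV, against 3 to 9 on the other chromosomes, and its median space was 20.6 kb.

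The left arm held 1.60 times as many regions as the right (0.993 to 2.62), a difference that did not pass the test in the combined list (exact binomial test, p = 0.0535, adjusted p = 0.120). With arms of 25% in place of 20% the ratio was 2.08 and passed (1.39 to 3.15; exact binomial test, adjusted p = 5.68e-04), and the left arm so defined takes in the bin from 4 to 5 Mb with its 29 regions. In the best list of replicate 2 alone the ratio was 1.71 (1.08 to 2.76, exact binomial test, p = 0.0214). Its adjusted p was 0.0481 (exact binomial test), taken among the combined list's p-values for the remaining tests. No adjustment within the list of replicate 2 was made, so this is not counted as a pass. In the best list of replicate 1 the ratio was 1.40 (0.856 to 2.32, exact binomial test, adjusted p = 0.438). The left arm of IV also held more than its right, with 60 against 40 combined regions. In the best lists of replicates 1 and 2 the counts on IV were 62 against 35 and 65 against 33. On I, II and III the right arm held more combined regions (54, 61 and 55 against 49, 46 and 40). The arms of these chromosomes were not tested.

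The third comparison was of rank. V held 36 of the best 10% of the combined list, which is 8.47% of its members (exact 95% interval 6.003 to 11.5), beside 9.97% of all combined regions and 10.3% of those on the other chromosomes. The odds ratio to them was 0.809 (0.543 to 1.18; Fisher's exact, adjusted p = 0.517), so no difference in rank was detectable. Among the best 100, V had 21 regions and the odds ratio turned to 1.34 (0.780 to 2.23; Fisher's exact test, adjusted p = 0.490). Among the best 500, V had 69 regions and the odds ratio was 0.761 (0.567 to 1.01), which did not pass (Fisher's exact test, adjusted p = 0.109). In 10 successive parts of the combined list the share of V ranged from 13.7% to 19.6%, around 16.7% over the whole list. The median number was 1282 on V and 1274 elsewhere.

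Ranks in the 3 parts of V were as follows. The median number was 1465.5 in the left arm, 1260 in the centre and 1090.5 in the right arm. The best 10% took in 4 of the 48 left arm regions, 30 of the 347 in the centre and 2 of the 30 in the right arm. These differences between the parts of V were not tested.

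The fourth comparison was the support of the V regions by each replicate. Of the 425 regions 414 (97.4%, exact 95% interval 95.4 to 98.7) overlapped a region of both replicates by at least 1 bp. The share was 97.5% over all combined regions and 97.6% on the other chromosomes (odds ratio 0.945, 0.482 to 2.03; Fisher's exact test, adjusted p = 0.864). A stricter requirement, an overlap in the best lists of both replicates, was met by 253 (59.5%, 54.7 to 64.2), beside 60.2% of all combined regions. The odds ratio against the other chromosomes was 0.965 (0.776 to 1.20; Fisher's exact test, adjusted p = 0.864). Of the remainder, 108 were among the best of replicate 1 only, 54 among the best of replicate 2 only, and 10 among neither. On the other chromosomes these counts were 515, 265 and 61 of 2123. An overlap in the best list of replicate 1 was thus found for 84.9% on V and 84.6% elsewhere. For the best list of replicate 2 it was 72.2% and 72.9%.

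Neither the support by both replicates nor the stricter requirement showed a detectable difference between V and the other chromosomes. Both intervals reach to either side of equality. Within V, 23 of 48 left arm regions (47.9%) met the stricter requirement, against 212 of 347 (61.1%) in the centre and 18 of 30 in the right arm.

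All 11 V regions without a partner in one replicate were missing from replicate 2, and 0 were missing from replicate 1. On the other chromosomes 51 regions were found in replicate 1 only and 1 in replicate 2 only. The best of the 11 was V:538359-538742 (number 1019, and number 487 in replicate 1), which lies beside the best region of the left arm. It was followed by V:8014237-8014620 (number 1562, and 759 in replicate 1) and by V:4507158-4507541 (number 1976, and 939 in replicate 1), the latter inside the largest cluster. The 11 ran from number 1019 to 2493, and 8 of them lay in the centre, which held 81.6% of all V regions.

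The replicates also differed in how many of their own best regions on V entered the combined list. Of the 411 V regions in the best list of replicate 1, 362 (88.1%, exact 95% interval 84.5 to 91.0) overlapped a combined region. For replicate 2 it was 309 of 418 (73.9%, 69.4 to 78.1). On the other chromosomes the shares were 83.9% (82.3 to 85.5) and 72.9% (70.9 to 74.7), so the lower share of replicate 2 was found across the genome. In the left arm of V the shares were 39 of 42 (92.9%, 80.5 to 98.5) for replicate 1 and 29 of 53 (54.7%, 40.4 to 68.4) for replicate 2, beside 85.4% (79.7 to 90.0) and 74.2% (67.4 to 80.3) in the left arms of I to IV, a difference that was not tested. Of the 109 replicate 2 regions left out on V, 80 had a partner in the whole list of replicate 1, beside 389 of all 418 (93.1%). Of the 49 replicate 1 regions left out on V, 25 had a partner in replicate 2, beside 375 of all 411 (91.2%). These counts of partners were made for V only.

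The best replicate 2 region of V outside the combined list was V:12538868-12539251, number 773 there and number 2608 in replicate 1. It lies next to a combined region at V:12539530-12539724 (number 100). For replicate 1 it was V:15190917-15191292, number 1193 there and 21914 in replicate 2. Both were called in both replicates, with the lower rank in the other one, and no V region better than number 773 in either replicate stayed out of the combined list.

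Across the V regions the combined number followed the best overlapping number of replicate 1 (Spearman's rho 0.807, n = 425) more closely than that of replicate 2 (rho 0.692, n = 414). The replicates' numbers followed each other with a rho of 0.385 (n = 414). On the other chromosomes these values were 0.846, 0.730 and 0.464. They are descriptions across regions of the same 2 samples, and the combined number derives from the same data.

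The replicate numbers of a V region were within 2-fold of each other for 210 of the 414 (50.7%), and they differed over 10-fold for 21. In 16 of these 21 the region was better placed in replicate 1. These counts were made for V only, so whether they differ from those of the other chromosomes was not tested. The widest contrast, chosen after the values were seen, was V:9911138-9911521 (number 900), which was number 442 in replicate 1 and 12760 in replicate 2, where its score was 0.735 against a highest value of 3.74. The next were V:18490444-18490827, at 563 and 13122, and V:9147203-9147586, at 971 and 20312. Each of these 3 had a region in both replicates, with midpoints 19, 173 and 49 bp apart.

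**Figure D3:**
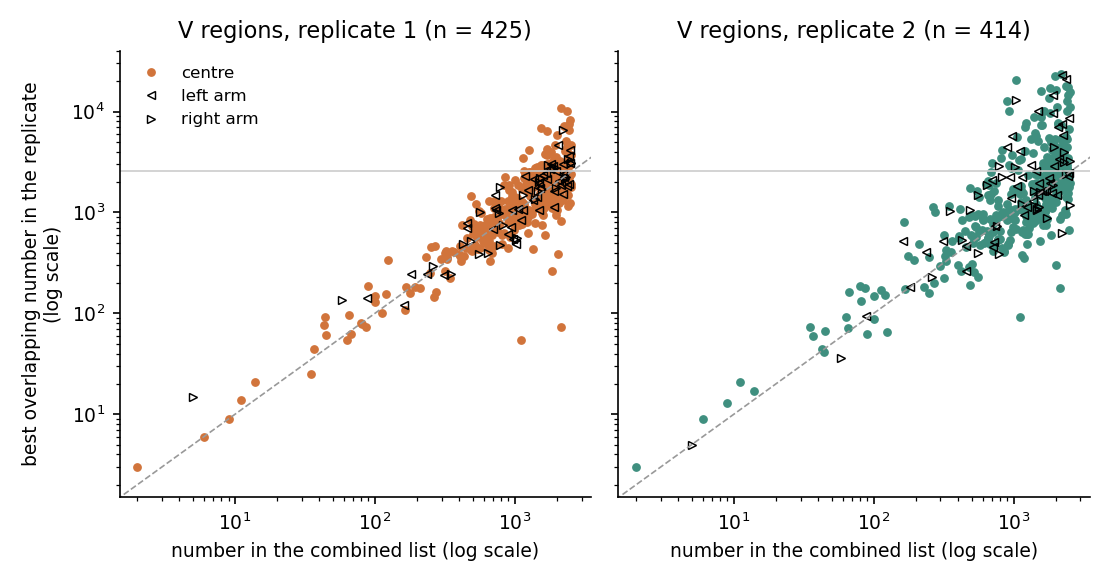
Best overlapping number in replicate 1 (left, n = 425) and replicate 2 (right, n = 414) against the number in the combined list for the V regions, all on log scales. The dashed line marks equal numbers and the grey line the length of the combined list; points spread upward at low ranks, more so in replicate 2, where the numbers reach 23356 against 10769 in replicate 1.

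The properties of the V regions were also followed down the ranks. When the V regions were ordered by number and divided into 5 parts of 85, all 85 of the first part met the stricter requirement of support, then 71, 58, 29 and 10. These are 100%, 83.5%, 68.2%, 34.1% and 11.8%. In 5 such parts of the other chromosomes the shares fell likewise, at 99.5%, 90.1%, 68.6%, 33.9% and 9.67%. The combined number was made from the same replicates, so this fall is largely set by the ordering and is given as a description. The median distance between replicate midpoints was 20.5 bp in the first part of V and 50 bp in the last, beside 24 and 65 bp on the other chromosomes. Over all 414 V regions it was 34 bp, and 356 (86.0%) lay within 100 bp. On the other chromosomes the median was 39 bp.

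Width followed rank as well. The set width of the combined list is 384 bp, and 66 V regions (15.5%, exact 95% interval 12.2 to 19.3) had another one, beside 16.5% of all combined regions (odds ratio against the other chromosomes 0.916, 0.677 to 1.23; Fisher's exact test, adjusted p = 0.852). Those 66 were all narrower, from 96 bp, with a median of 178.5 bp, and no V region was wider than 384 bp. Elsewhere 10 of 2123 regions were wider, a difference that was not tested. Of the 66, 55 were in the best of the 5 parts (64.7% of it) and 11 in the second (12.9%). On the other chromosomes these shares were 72.7% and 7.76%. The 20 best were 197 to 363 bp wide, and the widest of these, at 363 bp, were numbers 2 and 6.

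**Figure D4:**
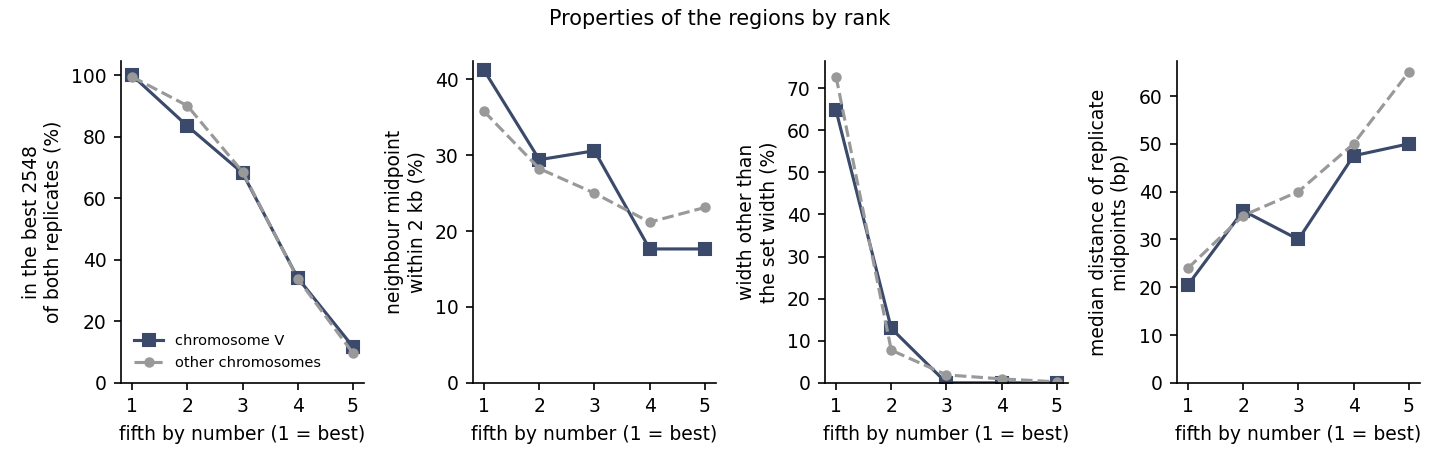
Properties of the V regions (squares) and of the regions on the other chromosomes (circles) in 5 parts by number, each with its own order from best (1) to last (5). Panels show the share in the best lists of both replicates, the share with a neighbour midpoint within 2 kb, the share of another width than 384 bp, and the median distance between replicate midpoints; on V the first falls from 100% to 11.8% and the last rises from 20.5 to 50 bp.

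The fifth comparison concerned regions that lie close together. On V, 116 regions (27.3%, exact 95% interval 23.1 to 31.8) had another combined midpoint within 2 kb, beside 26.8% of all combined regions and 26.7% on I to IV (odds ratio 1.03, 0.802 to 1.32; Fisher's exact test, adjusted p = 0.864). The share was 41.2% in the best of the 5 parts of V and 17.6% in the last, and on the other chromosomes 35.8% and 23.1%. In the better part of the list, up to number 1274, the odds ratio of V against I to IV was 1.54 (1.05 to 2.24), which did not pass after adjustment (Fisher's exact test, adjusted p = 0.0530). In the best list of replicate 2 it was 0.857 (0.660 to 1.11; Fisher's exact test, adjusted p = 0.427), in the other direction. No difference between V and the other autosomes was thus detectable, and its direction depended on the list.

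Joining neighbours within 2 kb left 358 places on V, of which 309 were single regions, 36 held 2 regions, 10 held 3 and 3 held more. V and X each had 13 clusters of 3 or more, and II had 11. Such clusters held 10.4% of the V regions, beside 9.67% on II, 8.79% on IV, 8.08% on X, 6.22% on III and 4.85% on I. The difference was not tested. The largest clusters of IV and X held 12 and 8 regions. The largest on V held 6 regions over 4298 bp, at V:4505520-4509817 in the centre, led by number 87. Overlapping entries make up part of it: numbers 400 and 2019 overlap each other, as do 87 and 2136, so the 6 entries form 4 separate stretches, and each overlapping pair takes its replicate numbers from the same replicate region. Number 87 itself was 74 in replicate 1 and 179 in replicate 2, and number 400 was 384 and 303. Number 929, at the right end of the cluster, was 1023 and 1087. The cluster of 3 at V:4918690-4920442 likewise forms 2 separate stretches, since numbers 63 and 1113 overlap. Over the whole of V, 6 regions overlapped the next one, which leaves 419 separate stretches. Elsewhere such overlaps numbered 7 on I, 8 on II, 7 on III, 1 on IV and 14 on X. The counts and shares of clusters take overlapping entries as separate regions.

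The other clusters of 4 lay at V:9499351-9503694 and V:8649820-8653759. The first was led by V:9500827-9501049 (number 121, with 157 in replicate 1 and 152 in replicate 2). Its other members were numbers 494, 670 and 1559, and the last of these was number 988 in replicate 1 and 15903 in replicate 2. The second was led by number 510, at 767 and 497, beside numbers 1996, 2258 and 2541. In both clusters all 4 regions had a partner in each replicate, and 3 and 2 of them were in the best lists of both.

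Among the clusters of 3, those at V:14504729-14507077 and V:19428139-19429939 held the best 2 regions of the chromosome. In the first, number 2 stood with number 67, 1041 bp away, and with number 2229, which was number 7167 in replicate 1 and 934 in replicate 2. In the second, numbers 5, 58 and 260 followed each other over 1801 bp, and all 3 were in the best lists of both replicates, at 15, 137 and 294 in replicate 1 and 5, 36 and 227 in replicate 2. The right arm, the thinnest part of V, thus held a cluster whose 3 members ranked within the best 260 of the genome. The left arm had 2 clusters of 3, at V:595970-598100 with numbers 182, 236 and 1501, and at V:800255-802540 with numbers 161, 716 and 971.

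**Figure D5:**
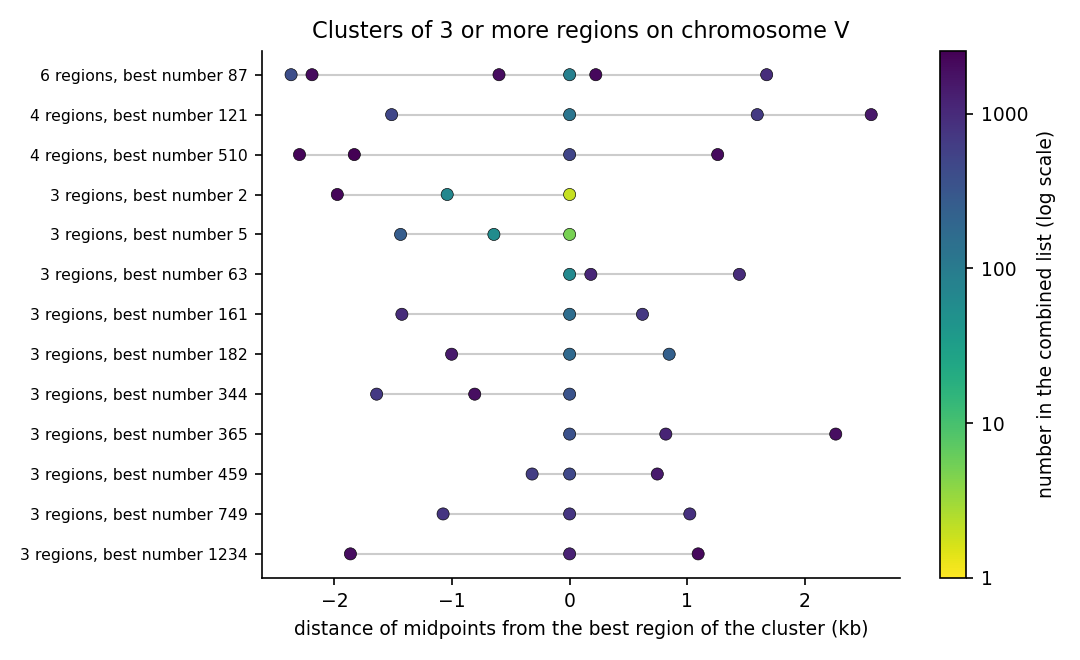
The 13 clusters of 3 or more regions on chromosome V, each on a line of its own, with the distance of every midpoint from that of its best region in kb and the number in the combined list as colour (log scale). The clusters led by numbers 2 and 5 hold 3 regions each, and the largest holds 6, of which 2 pairs overlap.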

How the data were processed

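The files held binding regions of 2 ChIP samples of ELT-1::GFP in L3 worms and 1 combined list, with a start, an end, a score and a numbered name. Per the file headers the build is WormBase WS220. Their source field names the peak caller SPP and IDR, a measure of reproducible ranking. The score in the deposited files has no stated meaning. For the aligner, versions, thresholds and rule of combination: not given in the sources used here. Input samples had no file analysed here, and depth is unknown, so intervals cover counts of regions only.

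The members and the comparisons were chosen with earlier results of these data known. Regions on V were read from the combined list and joined to the replicates by an overlap of at least 1 bp, taking the best number where several overlapped. Replicate regions were ordered by score, then number, to take the best 2548 nuclear ones, the length of the combined list; its best 10% are numbers 1 to 254. The highest coordinate in the lists served as chromosome length (20.9 Mb for V), and an arm the outer 20% at either end. Densities were compared with exact binomial tests, with exact 95% intervals conditional on the total. Shares were compared with Fisher's exact test, two-sided, and shares have Clopper-Pearson intervals. P-values of 9 tests were adjusted by Benjamini-Hochberg at 0.05. Under an alternative, the p-value of the test concerned was adjusted among those that the combined list gave for the remaining tests. The regions named are the 20 best of V, the clusters of 4 or more, the best of each arm and the centre, the 3 best with 1 replicate only and the best of each replicate outside the combined list; others are named where the text says so or as members of a cluster or pair. The overlap, neighbour and ratio functions were tested on simulated data. The planned description of GATA motifs and of nearby genes was not run. The tools were scipy 1.17.1, numpy 2.4.6, pandas 2.3.3 and matplotlib 3.10.9 under Python 3.11.15.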

Additional observations from a re-analysis of the deposited data

How the results depend on the processing

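The lower density of V (against the other chromosomes) and its denser centre kept their direction and passed the test under all alternatives tried, at 0.729 to 0.855 and 1.26 to 3.15. The balance of centre and arms against the other autosomes ranged from 1.32 to 1.68 with a replicate left out. In the whole lists it was 1.09 for replicate 1, which passed, and 1.06 for replicate 2, which did not. These were added after the data were seen, like all uses of whole replicate lists. The ratio of the left to the right arm ranged from 1.40 to 1.71 with a replicate left out and was 2.08 with arms of 25%. The ratio of centres against I to IV was 0.843 to 0.873 with a replicate left out, and 0.862 and 0.877 in the whole lists of replicates 1 and 2, where it passed; the ratio of arms, 0.567 in the combined list, was 0.793 and 0.826 there. Results without a detectable difference changed direction in places: the share among the best regions was 1.34 with the best 100, the support by both replicates 1.11 with a 50% reciprocal overlap, the stricter support 0.969 to 1.02 and the neighbours 0.857 to 1.09 with a replicate left out. Support by replicate 1 alone gives no odds ratio, since it covers 425 of 425 V regions. With the score in place of the number, rank agreement on V was 0.433 with replicate 1, 0.418 with replicate 2 and -0.132 between them; the score is at its highest value for most of these regions. Where a call changed otherwise, the cause was not tested. No paired analysis was possible because ChIP and input have no common measurement here. With unknown depth, a region absent from a list cannot be called unbound.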
